A study of Mus musculus with 10 samples.

Results

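Smooth muscle and pericyte genes were examined in the left ventricles of control and HFD+mTAC mice. The 9 genes, taken by symbol from the 29564 genes in the deposited tables, were Acta2, Tagln, Myh11, Cnn1, Smtn, Lmod1, Rgs5, Cspg4 and Notch3. All 9 were listed, and 8 passed the filter for testing, since Cspg4 was listed at 0 in 2 mice. They were taken by name alone, with no measured value in the rule, although earlier results of these data were known when they were chosen. In brief, none of the 8 genes tested differed detectably between the groups, while 5 contractile genes varied 2.20- to 4.87-fold between mice of the same group and were high or low in the same mice.

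The 10 mice were wild-type males of the strain labelled C57BL6 (C57BL/6J in the study's methods), 5 in each group, and the labels give vehicle as the treatment of every mouse. HFD+mTAC mice had moderate transverse aortic constriction (mTAC), which narrows the aortic arch and makes the left ventricle pump against a higher pressure, at an age of 11 weeks. From then on they ate a high-fat diet (HFD, 60% of kilocalories as fat) until they were killed, with 16 weeks given for induction. For these mice the labels give daily vehicle (10 mL/kg) over a span of 6 to 9 weeks, which the study's methods state for several experiments together. Control mice, labelled non-failing, had no constriction and ate chow with 10% of kilocalories as fat, so that the effects of diet and constriction cannot be told apart. The mice are named here by their numbers, TT-583 to TT-587 for controls and from TT-588 to TT-592 for HFD+mTAC mice, and each mouse gave 1 library of polyadenylated RNA from the whole left ventricle. In such tissue, fewer cells of a type and less RNA per cell cannot be told apart.

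Vascular smooth muscle cells wrap arteries and arterioles and set their width by contracting, whereas pericytes lie on capillaries and small venules. The contractile proteins of smooth muscle form a program of genes that the serum response factor (SRF) and its partner myocardin switch on through a DNA element named the CArG box. Notch receptors on these mural cells are activated by ligands on the endothelium, and the released receptor domain acts with RBPJ at genes such as those of the Hes and Hey families. Pressure load on the left ventricle is known to remodel coronary vessels, and some cardiac fibroblasts make smooth muscle actin when they become myofibroblasts.

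RefSeq promoters on GRCm38.p6 were at hand for 7 of the 9 genes, all but Tagln and Myh11. They are shown because Acta2, Cnn1 and Lmod1 moved together from mouse to mouse, Rgs5 followed them in part and Smtn varied little. In the 250 bases before each start, both strands were searched for the CArG box, for the same element with 1 C or G in its core, for CATTCC (the core bound by TEAD factors), for TGGGAA (the core bound by RBPJ) and for TATAAA. Capitals mark matches, and bases that GENCODE M21 places in exons are left out, other than around the 2 sites of Acta2. Those lie at chr19:34255438-34255467 and chr19:34255388-34255417 on the minus strand, in the first exon of a GENCODE transcript that starts further upstream, and hold CArG-like elements 84 and 34 bases before the RefSeq start. The stretches of the other genes are chr9:22099003-22099215 (plus strand) for Cnn1, chr1:135324563-135324806 (plus) for Lmod1, chr11:3539324-3539542 (minus) for Smtn and chr1:169655251-169655500 (plus) for Rgs5.
Acta2 upstream site: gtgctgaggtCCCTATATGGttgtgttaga
Acta2 downstream site: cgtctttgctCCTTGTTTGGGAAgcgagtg
Cnn1: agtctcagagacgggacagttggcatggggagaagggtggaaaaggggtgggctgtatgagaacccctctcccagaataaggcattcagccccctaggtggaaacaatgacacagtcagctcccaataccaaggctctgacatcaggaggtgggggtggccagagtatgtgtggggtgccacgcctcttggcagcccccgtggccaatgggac
Lmod1: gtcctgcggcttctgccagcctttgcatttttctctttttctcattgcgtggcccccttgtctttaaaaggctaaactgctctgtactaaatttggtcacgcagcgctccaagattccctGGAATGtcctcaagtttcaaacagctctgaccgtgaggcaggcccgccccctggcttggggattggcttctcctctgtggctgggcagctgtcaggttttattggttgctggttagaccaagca
Smtn: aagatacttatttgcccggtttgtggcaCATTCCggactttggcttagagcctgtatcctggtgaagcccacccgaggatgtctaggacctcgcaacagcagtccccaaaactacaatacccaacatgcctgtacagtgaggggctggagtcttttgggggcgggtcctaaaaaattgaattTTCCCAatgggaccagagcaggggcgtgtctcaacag
Rgs5: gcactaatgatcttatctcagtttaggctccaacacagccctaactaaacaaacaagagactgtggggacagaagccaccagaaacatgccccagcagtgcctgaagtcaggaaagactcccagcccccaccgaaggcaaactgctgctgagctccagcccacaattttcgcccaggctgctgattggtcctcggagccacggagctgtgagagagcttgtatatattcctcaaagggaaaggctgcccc

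No exact CArG box stood in these windows of the 7 genes, and 1.47% of 32851 RefSeq promoters hold 1 in the same 250 bases. The CArG-like form, present in Acta2 alone among the 7 genes, was found in 7.24% of all promoters. The downstream CArG-like site of Acta2 overlaps a TGGGAA, a motif present in 21.6% of all promoters and also in Smtn. CATTCC was found in 12.6% of all promoters, and among the 7 genes in Acta2, Lmod1 and Smtn, whereas TATAAA (12.4% of all promoters) was found in none of the 7. Cnn1, Rgs5, Cspg4 and Notch3 held none of the motifs searched. These matches describe letters in a short window and do not show that a factor binds there.

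Total estimated counts ranged from 34.2 to 53.7 M per mouse, of which 12.7 to 21.1 M fell on protein-coding genes of the nucleus. TT-583, TT-584 and TT-592 stood apart from the other mice. Mitochondrially encoded genes took 43.8 to 46.4% of their counts against 49.5 to 52.7% in the other 7 mice, and the average effective transcript lengths of genes with many reads were shorter in them. Without these 3 mice, 0 of the 8 genes had an adjusted p under 0.05 in edgeR, as with all 10 mice, and 2 of all 12934 genes had one. This count cannot show whether the 3 mice matter, and the median log2 fold change over the 8 genes moved from -0.24 to -0.08. Cardiomyocyte markers dominated the tissue, with a summed level of 79903 to 87470.2 CPM (counts scaled to a common library size after TMM normalization) in controls and 66589 to 78777 CPM in HFD+mTAC mice. Of the atrial markers, Myl7 and Sln reached at most 1.48 and 0.212 CPM, and the adipocyte marker Plin1 at most 0.0603 CPM. Some zeros in these tables may be failed estimates, since Myl6, a myosin light chain gene that nearly every cell uses, was listed at 0 in 9 of the 10 mice.

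The levels of the 9 genes per unit of transcript length covered a wide range. Mean TPM (transcript abundance as a share of all transcripts in a mouse, adjusted for transcript length, averaged over all 10 mice) was 50.4 for Rgs5, 21.1 for Smtn, 14.5 for Acta2, 6.995 for Tagln, 4.09 for Myh11, 1.12 for Notch3, 0.619 for Lmod1, 0.127 for Cnn1 and 0.110 for Cspg4. In this order, every mouse had more Rgs5 than Smtn, Acta2 than Tagln, Tagln than Myh11, Myh11 than Notch3, Notch3 than Lmod1 and Lmod1 than Cnn1. Smtn lay above Acta2 in 8 of 10 mice, and Cnn1 above Cspg4 in 5 of 10, so these neighbours could not be separated. TPM rests on effective lengths that exceeded the longest GENCODE M21 transcript in 6 of the 9 genes, as in 47.8% of the 12816 genes compared. With normalized counts divided by the longest transcript instead, Acta2 moved above Smtn and Cspg4 above Cnn1, and the other ranks stayed.

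Contractile genes are described first. Acta2 (chr19:34241090-34255590 on GRCm38, minus strand) encodes smooth muscle α-actin, the thin filament actin of vascular smooth muscle and of myofibroblasts. In controls TT-583 to TT-587, its normalized level was 302, 353, 137, 256 and 349 CPM. In HFD+mTAC mice, from TT-588 on to TT-592, it was 184, 122, 193, 332 and 258 CPM. The groups overlapped, with 4 of the 5 HFD+mTAC mice inside the range of the controls, and the lowest value of each group stood in TT-585 and TT-589. The means were 279 ± 89.0 CPM (SD, n = 5) and 218 ± 80.0 CPM (SD, n = 5), and edgeR gave -0.36 as log2 fold change (standard error, SE, 0.28, adjusted p = 0.795). The 95% interval of the fold reached from 0.515 to 1.18.

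Tagln (chr9:45929619-45936058, minus strand) encodes transgelin, an actin-binding protein that serves as an early marker of smooth muscle. Its level was 136, 97.9, 51.1, 76.9 and 134 CPM in controls. It was 65.1, 36.7, 60.3, 137 and 74.3 CPM in HFD+mTAC mice. As for Acta2, TT-585 and TT-589 were lowest in their groups, and TT-591 was the highest of all 10 mice. The log2 fold change was -0.41 (SE 0.33, adjusted p = 0.801 in edgeR), with means of 99.1 ± 36.6 and 74.7 ± 37.5 CPM (SD, n = 5 each). Of the words of 31 bases in Tagln transcripts, 62.2% also occur, reversed, in transcripts of the other strand, mostly of Gm48529. The library kit keeps strand, and whether the strand was used in the authors' quantification is not given in the sources used here.

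Myh11 (chr16:14194535-14291372, minus strand) encodes the smooth muscle myosin heavy chain, the most specific marker of mature smooth muscle among these genes. Its level was 203, 135, 94.0, 110.4 and 216 CPM in controls. It was 114, 70.3, 88.4, 243 and 99.9 CPM in HFD+mTAC mice. TT-591 lay far above the other 4 mice of its group, of which 3 lay within 88.4 to 114 CPM and 1 below. The log2 fold change was -0.30 (SE 0.33, adjusted p = 0.877 in edgeR), and without TT-591 it was -0.70 with the groups still overlapping. Myh11 shares 64 of its 7625 words of 31 bases with Myh9, a nonmuscle myosin gene.

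Cnn1 (chr9:22099216-22109630, plus strand) encodes calponin, which binds actin and restrains the myosin motor. It was the scarcest of the tested genes, at 5.91, 4.31, 2.06, 2.68 and 6.06 CPM in controls. In HFD+mTAC mice it was 1.47, 1.82, 2.00, 7.17 and 3.87 CPM. A single HFD+mTAC mouse, TT-592, lay inside the range of the controls, 3 lay below it and TT-591 above it. Its log2 fold change of -0.36 (SE 0.45, adjusted p = 0.898 in edgeR) had the widest interval, a fold of 0.399 to 1.52.
Lmod1 (chr1:135324807-135368065, plus strand) encodes leiomodin 1, which starts actin filaments in smooth muscle. Its level was 18.4, 13.2, 8.72, 13.0 and 19.2 CPM in controls and 11.2, 7.02, 12.4, 22.3 and 10.996 CPM in HFD+mTAC mice. TT-591 was again the highest and TT-589 the lowest of all mice. The log2 fold change was -0.18 (SE 0.28, adjusted p = 0.921 in edgeR).

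Smtn (chr11:3517523-3540612, minus strand) encodes smoothelin, a protein of contractile smooth muscle that is also known from striated muscle. Its levels were close to each other in all 10 mice, at 193, 184, 186, 187 and 172 CPM in controls and 184, 189, 193, 206 and 204 CPM in HFD+mTAC mice. TT-590 lay just above the highest control and TT-591 and TT-592 further above, and the other 2 HFD+mTAC mice lay within the range of the controls. The log2 fold change was 0.08 (SE 0.07, adjusted p = 0.821 in edgeR), and its interval was the narrowest, a fold of 0.954 to 1.17.

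Rgs5 (chr1:169655501-169695813, plus strand) encodes a regulator of G protein signaling and is among the most abundant pericyte transcripts. Controls had 1485, 1544, 1300, 1424 and 1600 CPM. HFD+mTAC mice had 1525, 1307, 1587, 1900 and 1206 CPM. The spread was wider in HFD+mTAC mice, with TT-591 above and TT-592 below every control. The means were 1471 ± 116 and 1505 ± 270 CPM (SD, n = 5 each), and the log2 fold change was 0.03 (SE 0.12, adjusted p = 0.966 in edgeR), a value whose sign depended on transcript length. With lengths as an offset it was -0.03.

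Notch3 (chr17:32120820-32166852, minus strand) encodes the Notch receptor of arterial smooth muscle and pericytes. It was 88.5, 79.5, 86.7, 89.4 and 90.8 CPM in controls. It was 108, 83.9, 83.1, 112 and 91.5 CPM in HFD+mTAC mice, of which TT-588, TT-591 and TT-592 lay above every control. The log2 fold change was 0.14 (SE 0.10, adjusted p = 0.778 in edgeR), a fold of 1.10 with a 95% interval of 0.951 to 1.27.

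Cspg4 (chr9:56865033-56899870, plus strand) encodes the NG2 proteoglycan of pericytes and of glial precursor cells. Its estimated counts were 0, 89.5, 554, 275 and 3.47 in controls and 503, 503, 253, 0 and 79.0 in HFD+mTAC mice. High values and values near 0 thus stood in both groups, and 8 of the 10 were not whole numbers. With no filter on low counts, its log2 fold change was 0.75 (SE 1.17, adjusted p = 0.889 in edgeR). Its mean effective length was 18216 bases, whereas its longest GENCODE M21 transcript has 8121. On counts scaled to the total of each mouse, without TMM, the pseudogenes Gm5641 (r = 0.96) and Gm12918 (r = 0.95) ran most like it among 12350 genes of any biotype, and they are named here after their values were seen. Both were listed at 0 in TT-583, TT-587 and TT-591, the 3 mice in which Cspg4 was at or near 0, and neither shares a word of 31 bases with the Cspg4 transcripts of M21. What share of these estimates comes from Cspg4 RNA was not tested.

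**Figure D1:**
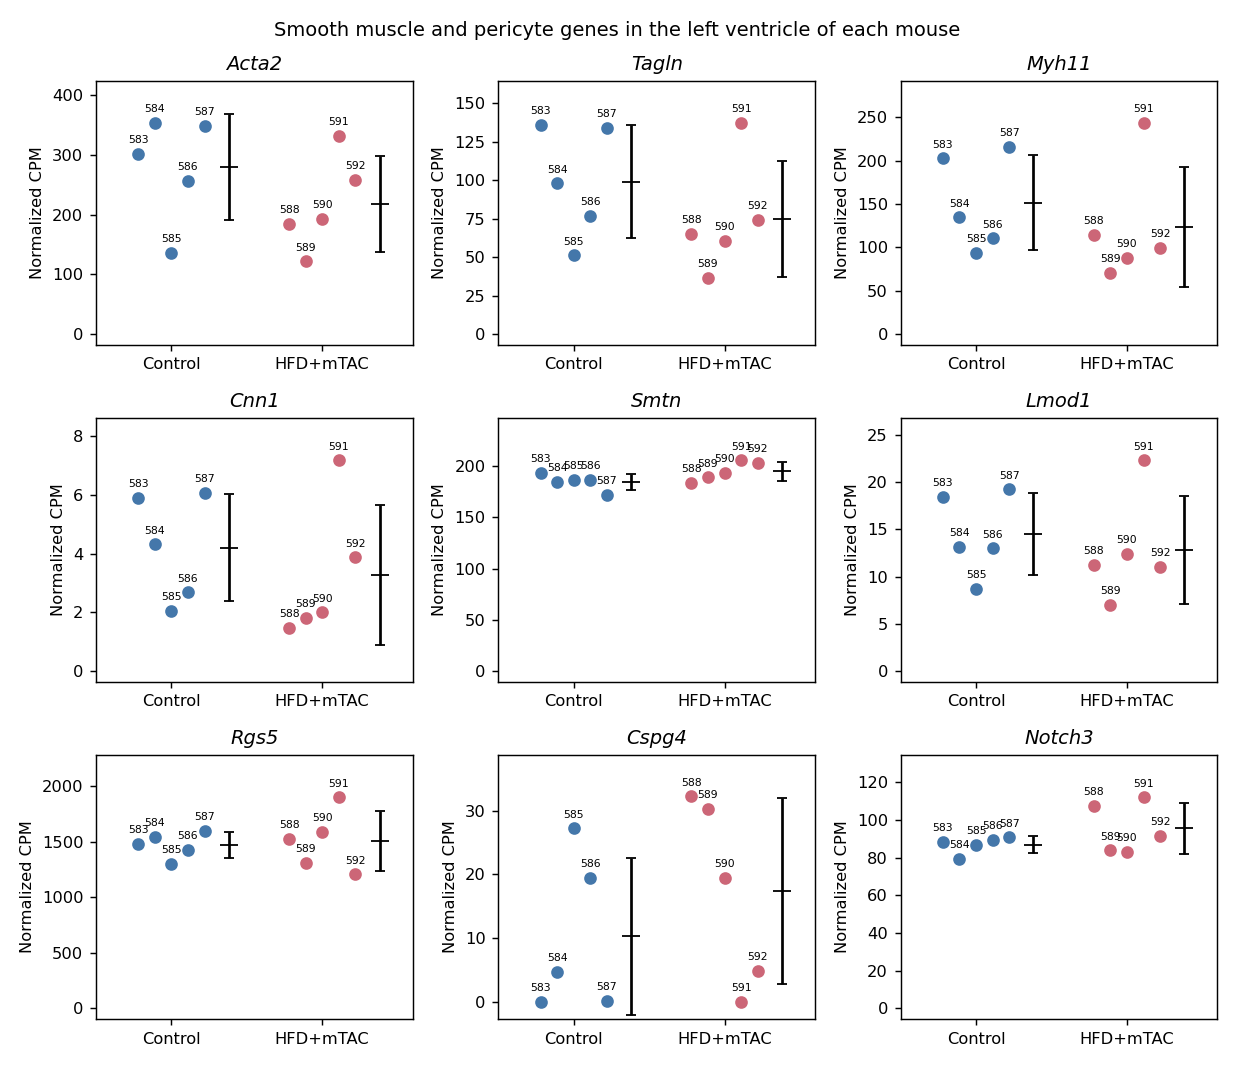
Normalized CPM (vertical axes, linear, scaled for each gene) of the 9 genes in every control mouse (blue) and HFD+mTAC mouse (red), with points marked by mouse number and bars for mean ± SD. The 2 groups overlap in every panel, and TT-591 is the highest mouse for Tagln, Myh11, Cnn1, Lmod1, Smtn, Rgs5 and Notch3.

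Of the 8 genes tested, 0 passed an adjusted p of 0.05 by edgeR's quasi-likelihood test, and 0 had an unadjusted p under 0.05, against 8.26% of all genes. Of all 13287 genes tested, 0.0602% passed (8 genes), so this test called little anywhere. DESeq2 called 120 genes, none of them among the 8. In none of the 8 genes did the groups fail to overlap, against 1.96% of all genes. Acta2, Tagln, Myh11, Cnn1 and Lmod1 had negative log2 fold changes and Smtn, Rgs5 and Notch3 positive ones, while 49.6% of all genes were negative. Without TT-591 the log2 fold change was -0.56 for Acta2, -0.75 for Tagln, -0.87 for Cnn1 and -0.48 for Lmod1 (adjusted p = 0.478 to 0.601 in edgeR), and without TT-589 it was -0.21, -0.24, -0.21 and -0.03. In edgeR's fit without TT-591, picked after the values were seen, the unadjusted p was 0.0127 for Myh11, 0.0191 for Tagln and 0.0423 for Cnn1. It was 0.0544 or higher for the other tested genes, and under 0.05 in 1138 of all 12863 genes. Without TT-585 it was 0.0372 for Acta2 and 0.0793 or higher for the others, and under 0.05 in 1150 of all 12840 genes. The median over the 8 genes was -0.24, against 0.00 over all genes. It moved between -0.52 (without TT-591) and -0.09 (without TT-589) when 1 mouse was left out, and was -0.08 without TT-583, TT-584 and TT-592. The intervals of the 5 contractile genes still include both a fall to below 0.6 of the control level and a rise above the control level.

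**Figure D2:**
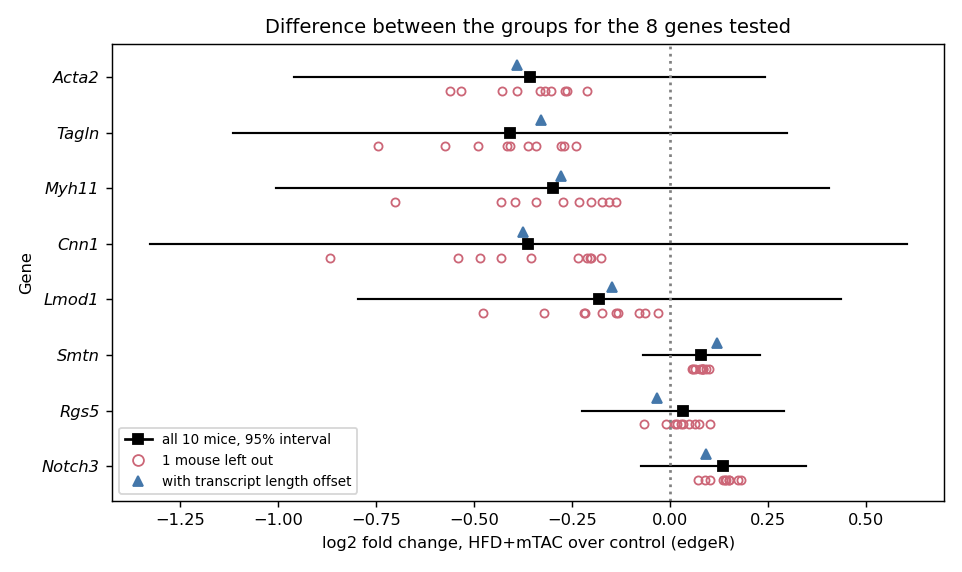
Log2 fold change of HFD+mTAC over control (horizontal axis) for the 8 genes tested with edgeR, as black squares with 95% intervals, open circles for fits without 1 mouse and blue triangles for the fit with transcript lengths as an offset. Every interval crosses 0, the intervals of Acta2, Tagln, Myh11, Cnn1 and Lmod1 are wide and those of Smtn, Rgs5 and Notch3 narrow.

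Variation between mice of the same group set the genes apart from each other more than the comparison of the groups did. Acta2 differed 2.59-fold between the highest and the lowest control and 2.73-fold within HFD+mTAC mice, and Cnn1 2.94-fold and 4.87-fold. The same ranges were 1.12-fold in both groups for Smtn, 1.23- and 1.58-fold for Rgs5, and 1.14- and 1.35-fold for Notch3. The within-group SD on the log2 scale was 0.51 to 0.72 for Acta2, Tagln, Myh11, Cnn1 and Lmod1, higher than that of 92.5 to 97.2% of the 12062 genes with a mean of at least 1 CPM. Smtn, with an SD of 0.07, varied more than 0.763% of these genes, Notch3 (0.15) more than 25.05% and Rgs5 (0.20) more than 44.0%.

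The 5 variable genes deviated in the same mice. TT-583, TT-587 and TT-591 were above the mean of their group for all 5 genes, whereas TT-585, TT-586 and TT-589 were below it. These mice stand in both groups. On the log2 scale, TT-588 and TT-590 lay below the mean for 4 of the 5 genes, and on the CPM scale for all 5. TT-584 and TT-592 held a mixture of signs on both scales.

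**Figure D3:**
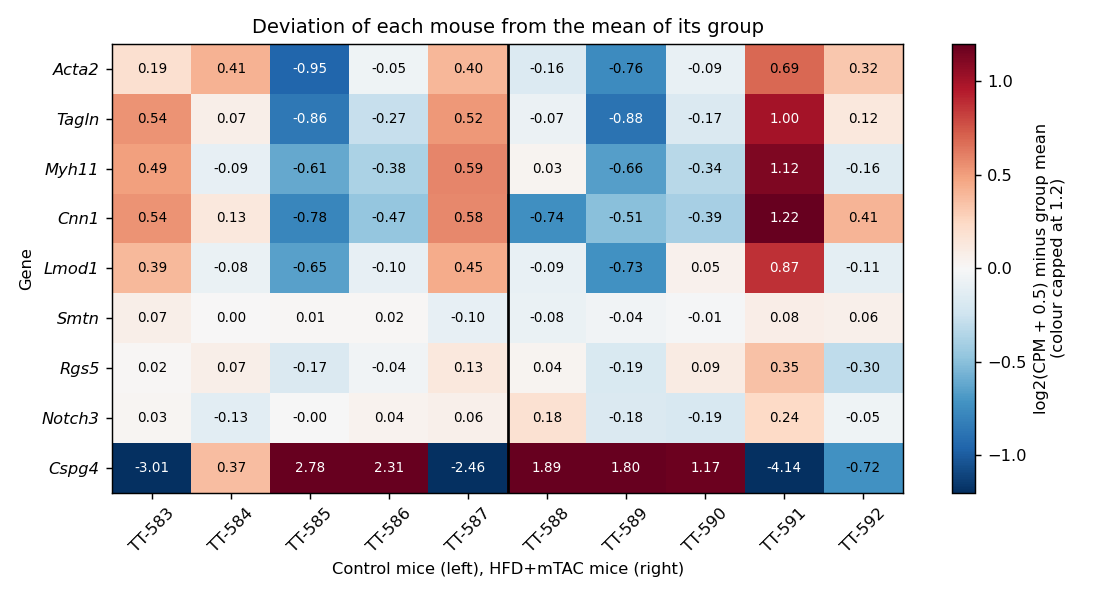
Deviation of each mouse (columns, controls left of the line) from the mean of its group on the log2(CPM + 0.5) scale for the 9 genes (rows), with colour from blue (below) to red (above) capped at 1.2. Acta2, Tagln, Myh11, Cnn1 and Lmod1 are red in TT-583, TT-587 and TT-591 and blue in TT-585 and TT-589, Cspg4 has the opposite colours in these mice, and Smtn is pale in all of them.

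Correlation between the genes was measured across the 10 mice after each group's mean had been removed, with exact permutation p-values over all arrangements within groups, adjusted over the 36 pairs. Tagln and Lmod1 had the highest correlation, with Pearson's r of 0.97 (exact permutation p = 0.00146, adjusted 0.00750) and Spearman's rho of 0.83 (exact permutation p = 0.0102, adjusted 0.0367). Without TT-589 and TT-591, the 2 mice farthest from the median of Tagln, r was 0.93. All 10 pairs among Acta2, Tagln, Myh11, Cnn1 and Lmod1 passed an adjusted p of 0.05 by Pearson's r and 7 by Spearman's rho, with r from 0.79 to 0.97 and rho from 0.72 to 0.94. Values of r were 0.63 to 0.93 without the 2 mice farthest from the median. These 5 genes were grouped after their values had been seen. Values of r of at least 0.8 occurred in 9 of their 10 pairs and in 1.92% of all pairs of the 12062 genes. Over all 36 pairs, 10 had r of at least 0.8 and 4, all with Cspg4, had r of -0.8 or lower.

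The 3 other genes with values in every mouse had a lower median r with the 5 genes on this scale. It was 0.27 for Smtn, 0.70 for Rgs5 and 0.57 for Notch3, against 0.88 among the 5 genes. Single pairs overlapped, since Rgs5 with Lmod1 (r = 0.80) lay above Acta2 with Myh11 (r = 0.79). The difference itself was not tested. Smtn had r from 0.21 to 0.45 and rho from 0.16 to 0.42 with the 5 genes, and none of these pairs passed (adjusted exact permutation p = 0.324 to 0.629). Without the 2 most distant mice its r ranged from -0.09 with Tagln to 0.75 with Cnn1. Rgs5 had r from 0.52 to 0.80 and rho from 0.54 to 0.89 and passed by r with Myh11 and Lmod1. Without the 2 most distant mice its r fell to between -0.05 and 0.59, but other omissions raised it. With 1 mouse left out at a time, its r ranged from 0.40 to 0.94 with Acta2 and 0.47 to 0.94 with Tagln. The same ranges were 0.51 to 0.88 with Myh11, 0.07 to 0.84 with Cnn1 and 0.63 to 0.94 with Lmod1. Notch3 had r from 0.37 to 0.70 and rho from 0.31 to 0.67 and passed by r with Myh11 alone (r = 0.70, adjusted exact permutation p = 0.0425), and without the 2 mice its r with Myh11 was 0.43. On TPM in place of CPM, r with the 5 genes was 0.74 to 0.88 for Rgs5, 0.62 to 0.82 for Notch3 and -0.15 to 0.18 for Smtn, against 0.84 to 0.96 among the 5 genes. Cspg4 ran opposite to the 5 genes, with r from -0.97 to -0.78, on the estimates whose doubts are given above. In all, 18 of 36 pairs passed by r and 11 by rho. The count by r was 2 without TT-591, 5 without TT-585 and 21 without TT-592, so that it depends on single mice. Values of r among the 5 genes stayed higher, and the lowest r of a pair without any 1 mouse was between 0.69 and 0.95.

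**Figure D4:**
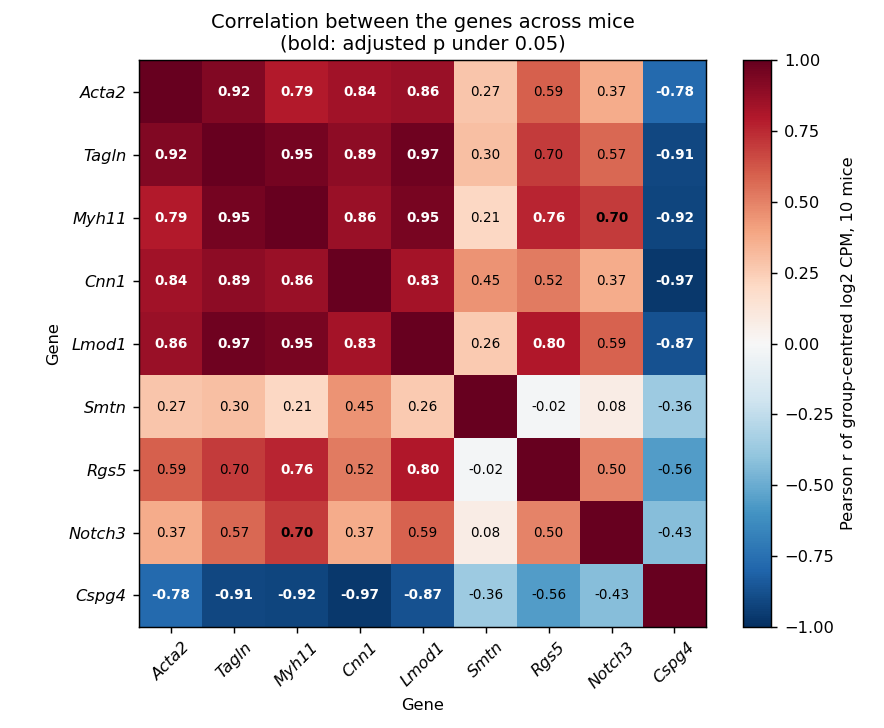
Pearson's r between pairs of the 9 genes (both axes) over the 10 mice, after removal of the group means from log2(CPM + 0.5), with blue for -1, red for 1 and bold type where the adjusted exact permutation p is under 0.05. The block of Acta2, Tagln, Myh11, Cnn1 and Lmod1 has r of at least 0.79, Smtn stays at or below 0.45, and Cspg4 is negative with every other gene.

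Measures of the whole library moved with these genes in part. The first principal component of all other genes, which held 23.4% of the variance within groups, had r of 0.74 to 0.84 with the 5 contractile genes and 0.05 with Smtn (adjusted exact permutation p = 0.0581 to 0.125 and 0.920, over 27 relations). With Rgs5, Notch3 and Cspg4 its r was 0.70, 0.22 and -0.82 (adjusted exact permutation p = 0.125, 0.841 and 0.0581), so it was not particular to the contractile genes. Spearman's rho was 0.70 to 0.90 for the 5 genes (adjusted exact permutation p = 0.0497 to 0.164), and r was 0.44 to 0.70 without TT-587 and TT-591. The mitochondrial share had r of -0.47 to -0.13 with the 5 genes, and the deviation of transcript lengths -0.36 to -0.03, with no adjusted exact permutation p of Pearson's r under 0.7. With this component as a covariate, 0 of the 8 genes passed and 68 of all genes did, and the lowest adjusted p among the 8 was 0.401, for Tagln (edgeR).

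For each gene, the 3 genes most like it among those with at least 1 CPM were listed by r of the same group-centred values. Tagln was most like Myl9 (r = 0.98), the regulatory light chain of smooth muscle myosin, then Tpm2 (r = 0.98), a tropomyosin gene of muscle, and Ccdc3 (r = 0.98). Lmod1 was most like Actn1 (r = 0.97), which encodes the nonmuscle α-actinin, Tpm2 (r = 0.97) and Tagln (r = 0.97). Myh11 was most like Flna (r = 0.96), the actin crosslinker filamin A, then Pkd2 (r = 0.96) and Tagln (r = 0.95). Acta2 was followed by Npy1r (r = 0.97), a receptor of neuropeptide Y, by Abhd14a (r = 0.95) and by Ccdc3 (r = 0.95).
The genes nearest to the others were of different kinds. Cnn1 was nearest to Prpf38b, Med29 and Vps72 (r = 0.97, 0.95 and 0.95), which encode nuclear proteins of splicing, transcription and chromatin. Smtn was nearest to Limk2 (r = 0.95), a kinase of the actin regulator cofilin that lies on the same chromosome, and to Mks1 and Rabepk (r = 0.95 and 0.90). Rgs5 was nearest to Lnx2, Arhgef26 and Armcx3 (r = 0.99, 0.97 and 0.96), Notch3 to Slitrk6, L1cam and Cpd (r = 0.91, 0.91 and 0.90), and Cspg4 to Lypla1, Synj2bp and Msl3 (r = 0.95 each). None of these neighbouring genes passed edgeR's test between the groups.

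Further genes of smooth muscle were counted from a list of 16, of which 15 were tested. In edgeR's test 0 were called higher and 0 lower, 13 of 15 had negative log2 fold changes, and the median was -0.16. Fbxl22, a sarcomere-associated gene of heart and smooth muscle, had the smallest p, with 65.4 ± 7.52 CPM in controls and 51.2 ± 2.82 in HFD+mTAC mice (SD, n = 5 each). Its log2 fold change was -0.35 (SE 0.09, adjusted p = 0.262), with groups that did not overlap. Mylk, the myosin light chain kinase that starts contraction, had -0.32 (SE 0.20, adjusted p = 0.724), and Pcp4l1 -0.13 (SE 0.09, adjusted p = 0.763). The list's summed level was 1424 to 1474 CPM in controls and 1230 to 1400 CPM in HFD+mTAC mice, without overlap of the groups. Its most abundant genes, Pcp4l1, Ppp1r12b and Synpo2, had means of 350, 309 and 221 CPM in controls. They ran opposite to Tagln across mice (r = -0.66, -0.78 and -0.77), so the list's sum need not follow the contractile genes. The highest r on the list, picked after the values were seen, belonged to Myl9, Tpm2, Actg2, Aoc3 and Mylk (r = 0.98, 0.98, 0.95, 0.92 and 0.92). Of the 15 genes, 8 had r of at least 0.8 with Tagln, against 2.98% of all genes.

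Pericyte genes were counted from a list of 16, of which 14 were tested, 0 called higher and 0 lower. The median log2 fold change was -0.04, with 6 positive and 8 negative. The smallest p belonged to Anpep (0.25, SE 0.11, adjusted p = 0.601), the aminopeptidase CD13 of pericytes. Gucy1b3, a subunit of the nitric oxide receptor guanylyl cyclase, had 0.18 (adjusted p = 0.707) and Colec11 had 0.26 (adjusted p = 0.768). Kcnj8, a subunit of the potassium channel of pericytes, was not tested because it was listed at 0 in 5 mice. The summed level of the list was 1052 to 1159 CPM in controls and 1009 to 1188 CPM in HFD+mTAC mice. Much of this sum was Abcc9, with means of 538 CPM in controls and 533 CPM in HFD+mTAC mice. Mcam and Vtn, named after their values were seen, had r of at least 0.8 with Tagln (r = 0.90 and 0.81), which makes 14.3% of the 14 genes against 2.98% of all genes. Abcc9, Tbx18, Anpep and Cd248 went the other way (r = -0.74, -0.67, -0.55 and -0.11), and the median r of the 14 genes was 0.60.

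All 24 other genes of the Notch pathway on the list were tested, 0 were called higher and 0 lower, and the median was 0.07 with 15 positive and 9 negative. The target genes Nrarp and Hes1 had -0.59 (SE 0.18, adjusted p = 0.352) and -0.45 (SE 0.19, adjusted p = 0.555). Further targets, Hey2, Hey1 and Heyl, named outside the rule for named genes, had -0.24, -0.15 and 0.03 (adjusted p = 0.801, 0.885 and 0.968 in edgeR). Notch4, the receptor of endothelium, had 0.30 (SE 0.13, adjusted p = 0.568). The ligand genes Dll1, Jag2, Jag1 and Dll4, which the rule for named genes did not select, had 0.32, 0.20, 0.09 and -0.19.

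Among 13 tested genes of SRF, myocardin and their partners, 0 were called higher and 0 lower, with a median of -0.04. Mkl2, which encodes a myocardin-related factor, had 0.30 (SE 0.11, adjusted p = 0.465), Csrp1 -0.21 (adjusted p = 0.80) and Tead3 -0.19 (adjusted p = 0.863). Srf and Myocd themselves, named for their role and not by the rule, had -0.04 and -0.03, and Myocd is also expressed by cardiomyocytes. Of the 13 genes, Elk4, Csrp1 and Tead3 had r of at least 0.8 with Tagln (r = 0.94, 0.86 and 0.83), whereas Myocd and Elk1 had the lowest values (r = -0.84 and -0.81), where Elk1 and Elk4 are named after their values were seen. Of the R4 family that contains Rgs5, 6 of 9 other genes were tested and 0 called in either direction, with a median of 0.00. Rgs16 had -0.35 (adjusted p = 0.728), Rgs2 -0.15 (adjusted p = 0.793) and Rgs18 0.27 (adjusted p = 0.928).

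**Figure D5:**
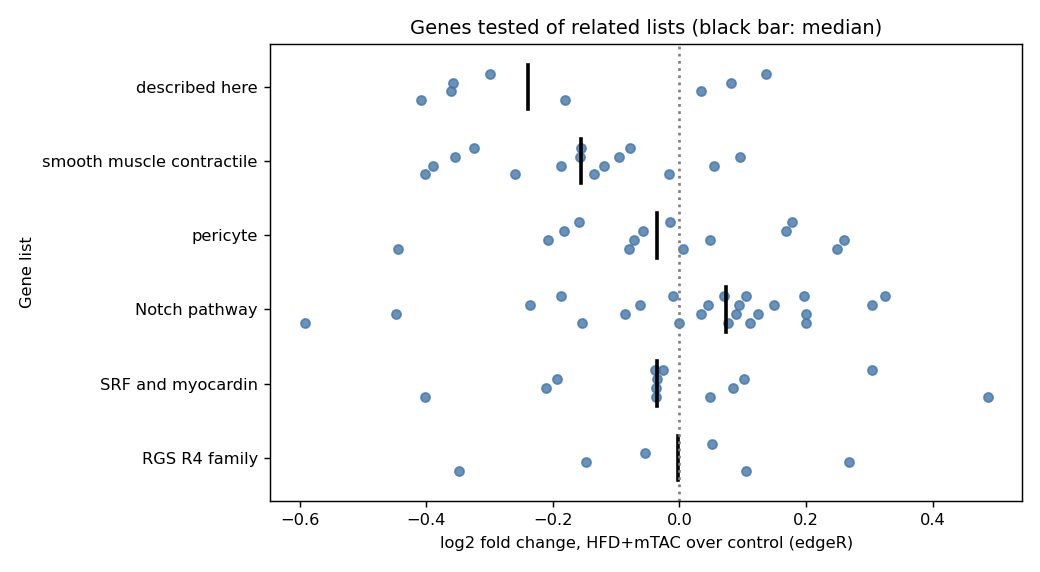
Log2 fold change of HFD+mTAC over control (horizontal axis, edgeR) of each gene tested, for the 8 genes described here and for the lists of smooth muscle, pericyte, Notch pathway, SRF and myocardin, and RGS R4 genes (vertical axis), with black bars for the medians. The medians lie between -0.24 and 0.07, and no point passed an adjusted p of 0.05.

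Markers of other cell types were summed in each mouse. Endothelial markers (10 genes) had 2241 to 2871 CPM in controls and 2248 to 3137 CPM in HFD+mTAC mice, and 4 of the 10 had r of at least 0.8 with Tagln. Fibroblast markers (10 genes) had 1841 to 2262 and 1890 to 2683 CPM, and those of activated fibroblasts (8 genes) 98.6 to 188 and 105 to 180 CPM, with 1 gene of each list at r of at least 0.8. Macrophage markers had 297 to 469 and 319 to 431 CPM, red blood cell markers 158 to 1813 and 170 to 1850 CPM, and Schwann cell markers 24.7 to 39.6 and 21.9 to 32.7 CPM. Mesothelial markers had 12.9 to 27.5 and 12.7 to 21.7 CPM, with Msln at 0 in every mouse. Atrial markers had 199 to 372 and 123 to 338 CPM, nearly all of it Nppa, a natriuretic peptide gene that ventricles also express, at 270.1 ± 66.9 and 185 ± 93.7 CPM (SD, n = 5 each). The log2 fold changes of the 3 tested atrial markers were -0.54 for Nppa, -0.42 for Myl4 and 1.36 for Bmp10 (adjusted p = 0.658, 0.707 and 0.461 in edgeR), of which Bmp10 stayed below 1 CPM on average. Skeletal muscle and adipocyte markers reached at most 4.59 CPM in any mouse. All 10 cardiomyocyte markers had negative log2 fold changes (median -0.21, 0 called), as did 49.6% of all genes. Their summed level in HFD+mTAC mice lay below that of every control, and so did the sum of the smooth muscle list. Among single genes, the groups did not overlap in 1.96% of all genes. None of these lists held a called gene. The part of these cell types in the values of the contractile genes was not tested.

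Average effective transcript lengths were compared as a second readout. They can differ with the isoforms used, but they also differed between whole libraries, being shorter in TT-583, TT-584 and TT-592. In 6 of the 9 genes they exceeded the longest GENCODE M21 transcript, so a difference in length need not be one between isoforms. None of the 9 genes passed after adjustment (two-sided exact permutation test over all divisions of 5 against 5 mice, with a smallest possible p of 0.00794). Rgs5 came closest, at 4293 ± 205 bases in controls and 4603 ± 81.9 bases in HFD+mTAC mice (SD, n = 5 each; exact permutation p = 0.0159, adjusted 0.143). How much of this follows the differences between whole libraries was not tested. In the other 8 genes the adjusted p was 0.913. The groups overlapped in all 9 genes, and failed to overlap in 0.375% of the 12816 genes with counts in every mouse. The lengths of Cspg4 in TT-583 and TT-591, where its count was 0, were identical at 18234 bases, as tximport fills in missing lengths.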

How the data were processed

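Left ventricular RNA of 5 control and 5 HFD+mTAC mice was analyzed, grouped by the labels. The authors deposited expected counts estimated by salmon (1.6.0 in the submitters' processing notes) and summed by tximport without normalization, TPM values, and average effective transcript lengths in bases. The study's methods name GRCm38 and paired reads, whereas the notes name a human build and the labels single-end reads. Of 29564 genes, 27812 symbols matched GENCODE M21 (GRCm38), 853 matched as older symbols and 899 did not match.

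Protein-coding nuclear genes with at least 1 count in 9 of 10 mice were tested on rounded counts in R 4.3.3 with edgeR 4.0.16 (TMM, quasi-likelihood test, Benjamini-Hochberg adjustment), without covariate. The fits were tested on simulated data. Alternatives were other scalings and filters, DESeq2 1.42.0, limma 3.58.1, length offsets and the omission of each mouse. The component covariate and the omission of 3 mice were added after seeing the data. The 9 genes and the lists were chosen with earlier results of these data known. Named genes were the 9, the 3 smallest p of each related list, and the 3 most alike to each gene. Whether the mice shared cages or batches is not given. The p-values between groups set the difference against the spread between these mice, taken as independent. An effect of cage or batch could not be told apart from a difference between the groups.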

Additional observations from a re-analysis of the deposited data

Results flagged for a closer look

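Of 36 groups of 5 values examined (normalized CPM and effective length of the 9 genes in each group), 2 held a mouse far from the others, where chance flags about 1 in 20. Myh11 in TT-591 was 243 CPM, and its gap to the next HFD+mTAC mouse was 0.746 of the range of the group, above Dixon's 95% critical value for 5 samples. On the log2 scale the gap stays below that critical value, with 7.93 for TT-591, 6.84 for TT-588 and 6.15 for TT-589, the lowest. The effective length of Smtn in TT-585 was 1181 bases, with a gap of 0.838 of the range of the controls.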

How the results depend on the processing

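In none of the alternatives run did any of the 8 tested genes pass an adjusted p of 0.05, nor did Cspg4 under the 2 filters that kept it. The number of genes called in the whole table was 8 with edgeR, 120 with DESeq2, 1 with limma on log2(TPM + 1) or log2(TPM + 0.1) and with the length offset, 68 with the first principal component as a covariate and 2 without TT-583, TT-584 and TT-592. It ranged from 1 to 9 when 1 mouse was left out. The log2 fold change of Rgs5, 0.03 with edgeR, was -0.0177 with limma on log2(TPM + 1), -0.0178 on log2(TPM + 0.1) and -0.0331 with the length offset, and ranged from -0.0651 to 0.10 when 1 mouse was left out, negative without TT-585 or TT-591. The other 7 genes kept their sign in every fit. The median over the genes ranged from -0.52 to -0.09 when 1 mouse was left out, and the count of correlated pairs from 2 to 21 of 36. No gene passed in effective length under ranks or without any mouse. With 5 mice per group, the contractile genes' spread limits what can be seen, and estimated counts of Cspg4, Kcnj8 and Myl6 are uncertain. No paired analysis was possible because the labels give each mouse its own number.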
